A study of Mus musculus with 4 samples.

Results

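H19, Igf2, Meg3, Rian, Mirg, Dlk1, Peg3, Peg10 and Mest are imprinted genes that the fetal liver expresses strongly and the adult liver represses. The 9 genes were found by their symbols among the 32285 genes counted in 4 sections of mouse liver tumour models. They were selected on their levels, their co-detection and their distribution on the array, which were already known. Those 3 readouts are therefore given as descriptions with no test, and the members are tested only in contrasts between classes of spots that other genes define. The spot levels summed in those contrasts were among the values known at selection. The members' p-values, and the counts of members called, are therefore not independent of it. Genes outside the members are also tested in spots with Meg3 or H19 and, by list, between the models.

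The study placed 1 frozen liver section of each of 4 groups on a Visium array, on which barcoded spots capture the RNA of the tissue above them. The STAM model, a metabolic model of hepatocellular carcinoma that mimics steatohepatitis (MASH) with type I diabetes, gave the sections STAM16w and STAM20w. The model that combines the carcinogen DEN with CCl4, in which DNA damage and fibrosis accompany the tumours, gave the sections DEN22w and DEN30w. The labels do not say whether the weeks in these names are an age or a time since treatment, whether the sections came from separate animals, or what strain and sex the mice had, and they give no untreated liver.

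An imprinted gene is expressed mainly from the copy inherited from 1 parent. Imprinted genes lie in clusters under a shared control region whose DNA methylation is set in the germ line, and many of them act on fetal growth. In the liver most are silenced within weeks of birth, and H19 and Igf2 are known to be expressed again in some liver tumours. The counts do not separate the parental copies, so nothing here measures imprinting itself.

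The members fall into 5 chromosomal neighbourhoods, given here as RefSeq places them on GRCm38.p6, the patched form of mm10. On chromosome 7 lie H19 (ENSMUSG00000000031, chr7:142575530-142578146), a maternally expressed long noncoding RNA, and Igf2 (ENSMUSG00000048583, chr7:142650768-142666816), a paternally expressed fetal growth factor. On chromosome 12 the maternally expressed long noncoding RNAs Meg3 (ENSMUSG00000021268, chr12:109540996-109571729), Rian (ENSMUSG00000097451, chr12:109603945-109661716) and Mirg (ENSMUSG00000097391, chr12:109734981-109749458) follow one another. Dlk1 (ENSMUSG00000040856, chr12:109452485-109463336), upstream of them, is paternally expressed and encodes a membrane protein related to Notch ligands. Peg3 (ENSMUSG00000002265, chr7:6703892-6730462) encodes a zinc finger protein from another imprinted region of chromosome 7. On chromosome 6 lie Peg10 (ENSMUSG00000092035, chr6:4747306-4760517), derived from a retrotransposon, and, in a region of its own, Mest (ENSMUSG00000051855, chr6:30733506-30748466), which encodes a hydrolase-like protein.

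The noncoding members host microRNAs, and the sequences below show what each transcript carries besides its own length. RefSeq placed 1 hairpin within H19, 1 within Igf2, 1 within Meg3, 3 within Rian, 10 within Mirg and 1 within Mest, and none within Dlk1, Peg3 or Peg10. The mature miR-1906 (chr12:109544588-109544609) and miR-770-5p (chr12:109563710-109563731) both lie within Meg3 and far apart, so the count of 1 hairpin there does not cover both. The seed, bases 2 to 8, is in capitals.
miR-675-5p (H19): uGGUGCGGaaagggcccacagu
miR-675-3p (H19): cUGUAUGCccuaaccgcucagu
miR-770-5p (Meg3): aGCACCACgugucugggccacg
miR-370-3p (Rian): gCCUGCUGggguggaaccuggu
miR-410-3p (Mirg): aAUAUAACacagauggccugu
miR-453 (Mirg): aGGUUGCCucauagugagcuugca
miR-496a-5p (Mirg): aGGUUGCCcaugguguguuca
miR-335-5p (Mest): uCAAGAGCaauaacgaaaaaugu
Of the mature forms these hosts carry, miR-453 and miR-496a-5p share the seed GGUUGCC. The Visium libraries count the long host transcripts and not the mature microRNAs.

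Meg3 and Rian are high in the same spots, as described further on. The 250 bases before their RefSeq starts are shown beside those before the start of Peg3, which is high elsewhere. Whether the Rian window acts as a promoter was not tested. The cAMP response element TGACGTCA is in capitals.
Meg3 (chr12:109540746-109540995, plus strand): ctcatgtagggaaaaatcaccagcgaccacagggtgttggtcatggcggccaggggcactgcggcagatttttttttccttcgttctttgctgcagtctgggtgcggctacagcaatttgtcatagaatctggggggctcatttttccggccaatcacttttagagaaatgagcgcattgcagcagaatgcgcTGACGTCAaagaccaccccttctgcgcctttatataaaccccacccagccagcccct
Rian (chr12:109603695-109603944, plus strand): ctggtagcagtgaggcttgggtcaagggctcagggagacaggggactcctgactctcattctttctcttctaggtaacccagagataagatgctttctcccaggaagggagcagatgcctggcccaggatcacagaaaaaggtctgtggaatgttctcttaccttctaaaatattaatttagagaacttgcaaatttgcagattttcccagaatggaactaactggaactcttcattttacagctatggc
Peg3 (chr7:6730420-6730669, minus strand): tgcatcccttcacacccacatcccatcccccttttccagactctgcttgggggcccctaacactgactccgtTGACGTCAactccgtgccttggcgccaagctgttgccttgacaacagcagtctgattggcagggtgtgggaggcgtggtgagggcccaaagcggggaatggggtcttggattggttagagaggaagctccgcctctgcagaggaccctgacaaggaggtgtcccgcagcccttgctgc
Searched on both strands, the Meg3 window held the element at -57 from the start, and the Peg3 window held it at -178. The Rian window held neither TGACGTCA nor CCAAT nor TATAAA. Of 32851 RefSeq promoter windows of the same length, 1.55% held TGACGTCA, 33.8% CCAAT and 12.4% TATAAA. The promoter table matched 7 of the 9 members, without H19 and Peg10, and no window of Igf2, Mirg, Dlk1 or Mest held TGACGTCA. A second Meg3 window, at chr12:109545148-109545397 and not printed, held neither TGACGTCA nor CCAAT nor TATAAA.

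After spots with fewer than 500 UMIs (unique molecular identifiers, 1 per captured transcript) or 250 genes were left out, the sections kept 2080 to 2968 spots and 20700642 to 40008457 UMIs. Median UMIs per spot were 9711.5, 12761, 7302.5 and 9423 in STAM16w, STAM20w, DEN22w and DEN30w, the order used for all series of 4 values below. The labelled tissue was borne out in each section by Alb, the albumin gene, at 11853 to 35552 CPM, a gene's UMIs scaled to 1000000 UMIs of the section or of the spots named. A spot can hold several cells of different types, so in every comparison here fewer cells of a type and less RNA per cell cannot be told apart. The same array positions recur in all arrays, and 1136 spot barcodes were shared by all 4 sections.

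Meg3 was widespread in every section and most so in DEN30w. It had 737, 1657, 1073 and 2675 UMIs, or 35.6, 41.4, 47.7 and 76.7 CPM. At least 1 Meg3 UMI was seen in 23.2%, 21.0%, 27.0% and 47.6% of spots, and in 6.04%, 6.44%, 10.1% and 16.5% of spots after each spot was thinned to 2000 UMIs. The DEN+CCl4 sections were thus the higher pair on both scales, with DEN30w alone at the top. Rian stood at 4.30, 7.97, 5.07 and 7.11 CPM, and Mirg at 1.64, 3.02, 2.05 and 3.35 CPM. In both, the later section of each model was the higher one. Dlk1, which lies in the same cluster and is expressed from the other parental copy, had only 2, 1, 9 and 7 UMIs in the 4 sections.

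H19 was concentrated in few spots. It had 86, 749, 93 and 289 UMIs, or 4.15, 18.7, 4.14 and 8.29 CPM (exact Poisson 95% intervals 3.32 to 5.13, 17.4 to 20.1, 3.34 to 5.07 and 7.36 to 9.30, which cover counting error only). STAM20w was the highest section by this measure, and STAM16w and DEN22w had overlapping intervals. The 10 spots richest in H19 held 52.3%, 35.0%, 26.9% and 17.0% of its UMIs, and single spots reached 22, 50, 4 and 10 UMIs. Igf2, its neighbour, was near the limit of detection with 5, 37, 3 and 35 UMIs, the 2 later sections holding nearly all of them.

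Peg3 divided by model, and Mest did so less clearly. Peg3 had 108, 381, 32 and 65 UMIs, or 5.22, 9.52, 1.42 and 1.86 CPM, so that both STAM sections lay above both DEN+CCl4 sections. Mest stood at 3.28, 8.65, 4.23 and 4.62 CPM, with STAM20w above the other 3 sections. Peg10 had 8, 17, 4 and 11 UMIs. These CPM values are not corrected for transcript length or capture, so the order of the genes within a section was not read from them.

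**Figure D1:**
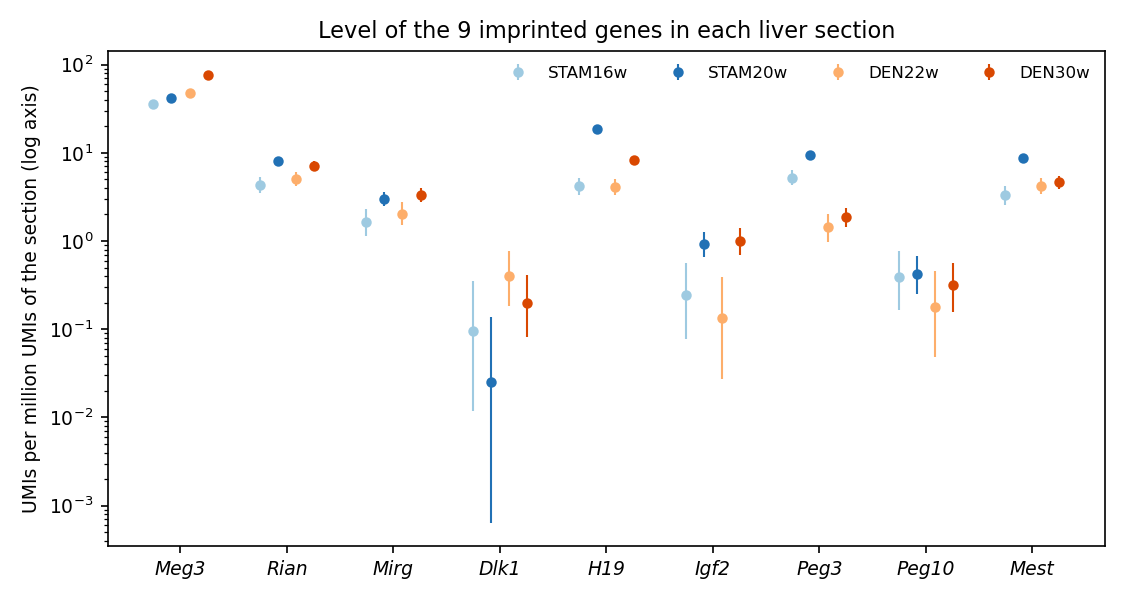
Level of each of the 9 imprinted genes in the 4 liver sections, in CPM on a log axis; points are single sections and bars are exact Poisson 95% intervals of counting error. Meg3 lies between 35.6 and 76.7 in all sections, Peg3 is higher in both STAM sections than in both DEN+CCl4 sections, and the intervals of Dlk1, Igf2 and Peg10 are wide because few UMIs were seen.

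Between the labelled times of the STAM model, H19 was 4.51 times as high in STAM20w as in STAM16w (exact 95% interval of counting error 3.60 to 5.70). Igf2 was 3.83 times as high (1.5 to 12.5), Mest 2.63 times (2.02 to 3.47), Rian 1.85, Mirg 1.84 and Peg3 1.83 times. The ratio of Meg3 was 1.16 (1.07 to 1.27), and it was 0.704 when the largest Meg3 patch of each section was left out, so 1 patch set its direction. The ratio of Rian was 1.01 without its largest patch. Between DEN30w and DEN22w, H19 was 2.0 times as high (1.58 to 2.56), Igf2 7.52 times (2.37 to 38.2), Meg3 1.61 times (1.5 to 1.73), Mirg 1.64 and Rian 1.40 times. Peg3, Mest, Peg10 and Dlk1 had intervals that included 1 in that pair. Each side of these ratios is 1 section, so section and time cannot be told apart. Of the genes that reached 10 CPM in at least 1 section of the pair, 6.49% were at least 2-fold higher in STAM20w and 2.51% at least 2-fold higher in DEN30w; of the members H19 and Meg3 reached that level in the STAM pair and Meg3 alone in the other pair.

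Between models, with 2 sections on each side, the members' differences are descriptions, since the levels of the sections chose them. The fitted log2 difference, STAM minus DEN+CCl4, was 2.32 for Peg3 and lay between 1.88 and 2.61 when each section was left out in turn. It was 1.03 for H19 and -0.51 for Meg3. The models share no labelled time, so model and time cannot be told apart in this comparison.

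On the array, Meg3, Rian and Mirg were high in one continuous area of STAM20w. A patch is here a connected set of at least 10 spots in which the gene, summed over a spot and its touching spots, reached 5 UMIs and 5 times its section level. The Meg3 patch had 113 spots, 3.99% of the section, and held 800 of 1657 Meg3 UMIs (48.3%). Inside it Meg3 stood at 274 CPM (256 to 294) and outside at 23.1 CPM. The largest Rian patch had 83 spots at 60.4 CPM against 4.33 outside and held 49.2% of Rian UMIs. A Mirg patch of 32 spots stood at 33.0 against 2.23 CPM. Of the Rian spots 63 lay in the Meg3 patch, which is 75.9% of the Rian patch and 55.8% of the Meg3 patch. A second Rian patch of 17 spots shared 16 of them with Meg3, and the Mirg patch shared 24 of its 32.

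H19, Peg3 and Mest, from other chromosomal neighbourhoods, were not raised in this patch. Over the 113 spots, H19 was at 8.92 CPM against 19.5 outside, Peg3 at 2.06 against 10.1 and Mest at 7.20 against 8.76. Spots of the patch were deep, with a median of 25941 UMIs against 12106 outside, and the summed pericentral hepatocyte markers stood at 9437 CPM there against 4898 outside. Of those 15 genes, 10 were above the outside level and 5 below it, both beyond counting error. The periportal markers stood at 2263 against 8911 CPM and all 15 of them were lower. The summed proliferation markers were at 166 against 48.5 CPM, with 9 of 10 genes above the outside level beyond counting error. Among genes at 50 CPM or more in the patch, the highest ratios after Rian and Meg3 included those of Duox1, an oxidase, Slc7a11, the cystine transporter, Gstp2, a glutathione transferase, Cpe, a carboxypeptidase, Sp5, a target of Wnt signalling, Gpx2, a glutathione peroxidase, and Bex1. Cpe stood at 113 against 12.3 CPM and Bex1 at 52.1 against 6.52. Summed macrophage markers were lower in the patch (1206 against 1717 CPM), as were those of stellate cells and myofibroblasts (152 against 244 CPM).

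**Figure D2:**
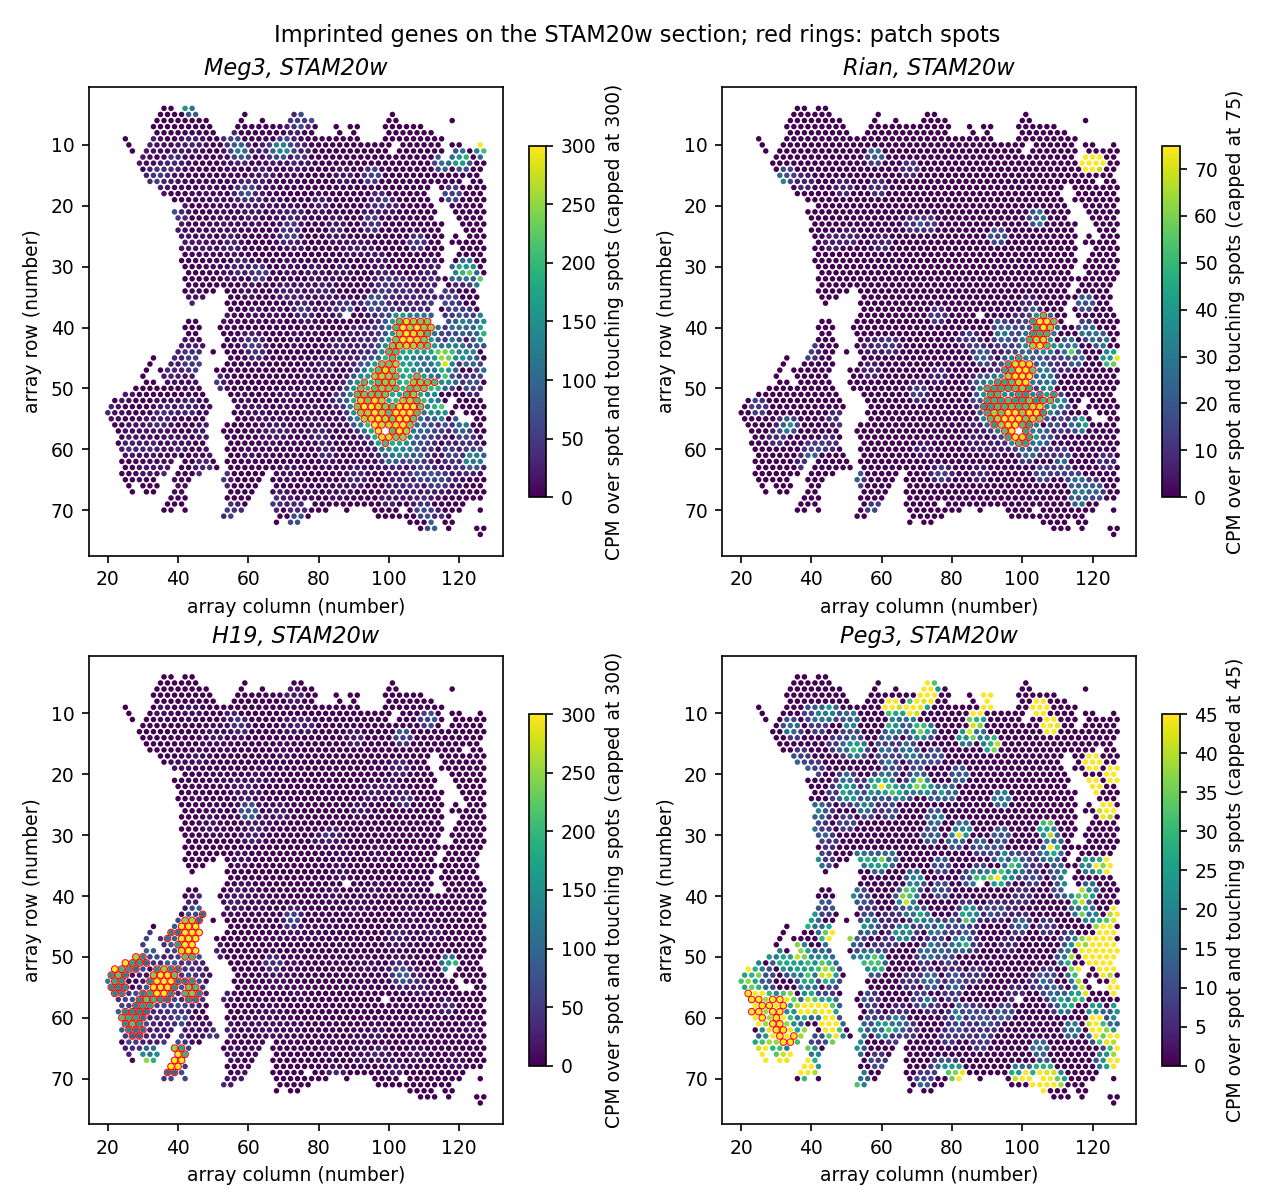
Spots of the STAM20w section at their array rows and columns, coloured by CPM summed over each spot and its touching spots for Meg3, Rian, H19 and Peg3 (colours capped as marked); red rings are spots of a patch. Meg3 and Rian patches overlap on the right of the section in 63 spots, the 4 H19 patches lie on the left, and the Peg3 patch lies among the H19 patches, with further high Peg3 spots along the right edge that formed no patch.

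H19 formed 4 patches on the opposite side of STAM20w, in tissue that a gap partly sets apart, of 55, 24, 20 and 10 spots. They shared no spot with the Meg3 patch. H19 stood at 263, 376, 176 and 401 CPM in them, and the largest held 28.7% of the section's H19 UMIs. Afp, the fetal counterpart of albumin, stood at 197, 214, 215 and 507 CPM in the same 4 patches, against 51.4 CPM outside the largest. Peg3 stood at 30.5, 16, 26.3 and 47.2 CPM in them, against 9.08 outside the largest. Igf2 had 1, 6, 4 and 1 UMIs in the 4 patches, 12 of the section's 37. Meg3 in the largest H19 patch was at 14.7 CPM against 42.0 outside.

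Zonation markers in the H19 patches were unlike those in the Meg3 patch. Over the largest H19 patch the summed pericentral markers stood at 1181 CPM against 5313 outside, with 13 of 15 genes lower beyond counting error, and the periportal markers at 8149 against 8432. Summed bile duct markers stood at 815, 390, 1141 and 767 CPM in the 4 patches, against 197 outside the largest. In the largest patch 3 of the 9 genes were above the outside level beyond counting error and 0 below it, and 1 had no UMI. The genes with the highest ratios after H19 included Cyp2b10, a drug-metabolising cytochrome (62.3 against 5.89 CPM), the protease inhibitor Slpi (337 against 44.7 CPM), Cib3, Tstd1, Cd24a (147 against 27.5 CPM) and the fatty acid binding proteins Fabp5 and Fabp4. The part that bile duct cells have in these levels was not tested.

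Peg3 formed a patch of 22 spots that rests on 11 UMIs, at 34.4 CPM against 9.32 outside. It shared 11 spots with the largest H19 patch, 50% of its own spots and 20% of the H19 patch. Afp stood at 560 against 50.3 CPM in it. Grb10, an imprinted adaptor of insulin signalling that is not among the members, stood at 59.4 against 8.37 CPM. Mest, Igf2, Dlk1 and Peg10 formed no patch in any section at these thresholds, and with 3 UMIs in place of 5 Igf2 formed one of 11 spots in STAM20w.

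In the other sections patches were few. STAM16w had a Meg3 patch of 20 spots at 328 CPM against 32.8 outside, with Rian at 40.9 against 3.95 CPM and Glul, the glutamine synthetase of the hepatocytes next to the central vein, at 2283 against 553 CPM. It also had an H19 patch of 10 spots, in which 1 spot gave 22 of the 30 UMIs. DEN30w had a Meg3 patch of 11 spots at 518 against 75.9 CPM, with 33 UMIs and a low median depth of 4699 UMIs per spot. DEN22w had none. In all, 12 patches were found, and 30, 256, 0 and 11 spots of the 4 sections lay in at least 1 of them. The patches depend on the threshold. At 8 times the section level no section had a Meg3 patch, and at 3 times the level DEN22w had 4 Meg3 patches with 62 spots in all and the Meg3 patch of STAM20w had 200 spots.

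Moran's I, which is near 0 when touching spots are no more alike than others, described the same distribution without a threshold. For Meg3 it was 0.179, 0.492, 0.105 and 0.168, higher than for 98.8% to 99.6% of the genes ranked in each section. For H19 it was 0.132, 0.422, 0.0123 and 0.0728. DEN22w thus had little neighbourhood structure in H19, at 64.2% of genes below, whereas Meg3 kept a high rank there without forming a patch. For Rian it was 0.0563, 0.316, -0.00378 and 0.0553. Mest stood near or below the median of all genes in every section, and Peg3, ranked in 3 sections, stood above it only in STAM20w (0.0528 against a median of 0.0172). Rank depends on how often a gene is seen, so ranks of genes at different levels were not compared.

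**Figure D3:**
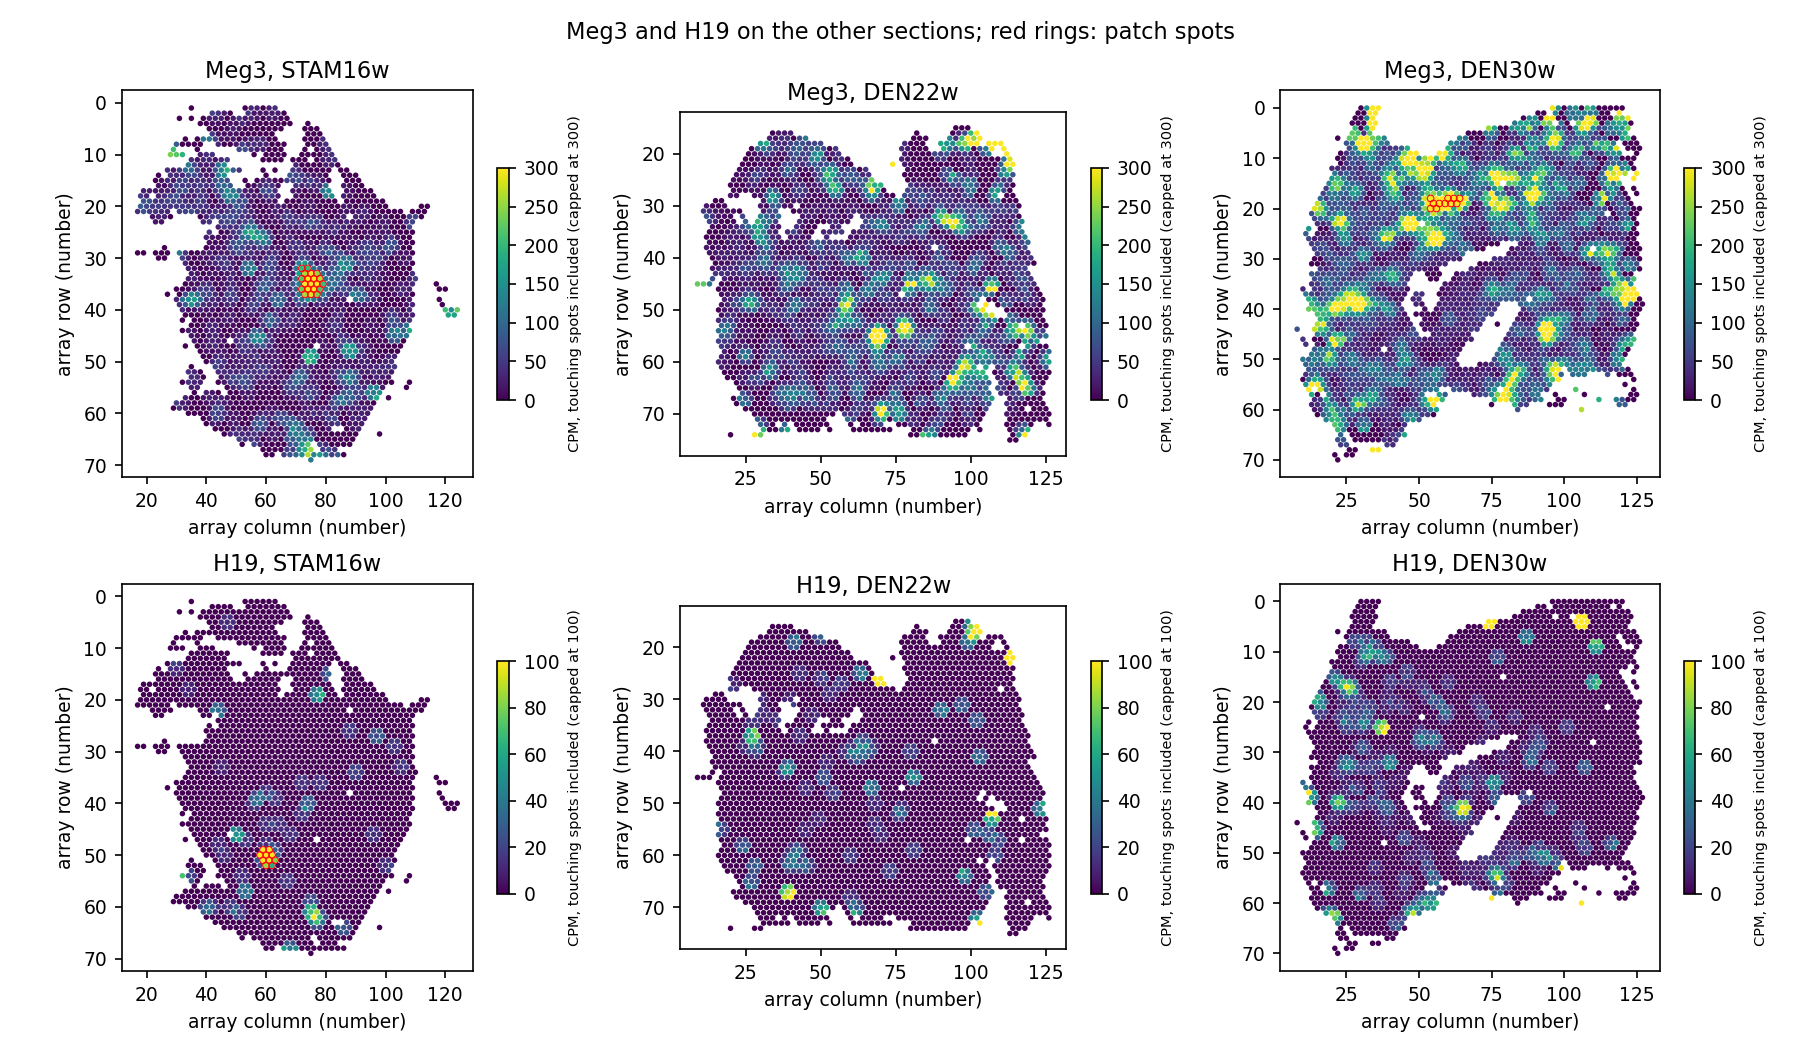
Meg3 (upper row) and H19 (lower row) on the STAM16w, DEN22w and DEN30w sections at their array rows and columns, coloured by CPM summed over each spot and its touching spots (colours capped as marked); red rings are spots of a patch. Meg3 has 1 compact patch of 20 spots in STAM16w and many small high areas in the DEN+CCl4 sections, and H19 has 1 patch of 10 spots, in STAM16w.

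Of the members given here, Rian and Mirg were raised most in Meg3 spots of STAM16w, STAM20w and DEN22w. In DEN30w H19 was raised most. In spots with a Meg3 UMI, Rian had 3.42, 13.5, 2.63 and 1.97 times the CPM that it had in spots without one. The counting intervals of these ratios all lay above 1. For Mirg the ratios were 2.48, 10.5, 2.45 and 1.29, and the last interval (0.875 to 1.91) included 1. Mest had ratios of 0.931, 0.960, 1.13 and 0.900, all with intervals that included 1. Peg3 had 0.558, 0.639, 0.350 and 1.21, below 1 beyond counting error in both STAM sections. H19 had 0.590, 1.59, 1.23 and 2.25, the last above the DEN30w ratios of Rian and Mirg.

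Spots with Meg3 were deeper than the rest, at medians of 10956 against 9278, 19511 against 11148, 8102 against 6980 and 12020 against 7209.5 UMIs, which raises shares of spots but not CPM. After thinning to 2000 UMIs, Rian was seen in 1.63%, 4.73%, 4.28% and 4.83% of Meg3 spots and in 0.783%, 0.896%, 1.27% and 1.73% of the others. In STAM20w, Igf2 had 18 of its 37 UMIs in the 272 spots with H19, at 6.54 times the CPM of the other spots (3.24 to 13.2). In DEN30w the same ratio was 3.81 (1.68 to 8.08). Over the 2833 spots of STAM20w the genes most correlated with H19 were Slpi (Pearson r = 0.32), Afp (0.29), Tstd1 (0.28), Fabp4 (0.27) and Fabp5 (0.26). Over the 2968 spots of DEN30w those most correlated with Meg3 were Cd74, the invariant chain of MHC class II (0.20), and Gstm3 (0.20). These correlations are over spots of 1 library that share its depth, and no gene reached 0.2 with Peg3 or Mest in STAM20w or with Rian in DEN30w, the sections examined for them.

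Meg3, Rian and Mirg rose from periportal to pericentral spots. Each section's spots were ordered by an index of 15 pericentral over 15 periportal genes and divided into 5 equal classes, and the classes at the ends were compared with the index genes left out of the test. Meg3 stood at 86.8 against 11.3 CPM in STAM16w, 131 against 8.68 in STAM20w, 118 against 20.8 in DEN22w and 174 against 38.5 in DEN30w. The pericentral class was higher in all 4 sections, with no overlap between the classes. The log2 difference was 2.67 (SE 0.24, edgeR adjusted p = 0.000182). Rian stood at 11.6 against 0.512, 27.5 against 1.74, 12.8 against 1.25 and 17.3 against 1.99 CPM, a log2 difference of 3.46 (SE 0.23, edgeR adjusted p = 3.18e-05). Mirg stood at 2.01 against 1.02, 9.95 against 0.801, 5.27 against 1.42 and 6.42 against 1.71 CPM, a log2 difference of 2.14 (SE 0.38, edgeR adjusted p = 0.00750). The STAM16w values of Mirg rest on 9 against 4 UMIs, and the counting interval of their log2 ratio (-0.87 to 3.13) included 0.

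The 3 members called higher are of 6 tested, against 3.26% of the 12527 genes tested that were called higher and 3.54% called lower. Igf2, Dlk1 and Peg10 did not pass the filter on low counts. H19 (-0.76, SE 0.85), Peg3 (-0.66, SE 0.40) and Mest (0.10, SE 0.26) were not called. Meg3 and Rian climbed across the 5 classes in the DEN+CCl4 sections and mainly in the most pericentral class in STAM20w, where Meg3 stood at 8.67, 10.2, 12.6, 20.4 and 131 CPM. Without any patch spot the log2 differences of Meg3, Rian and Mirg were 2.33, 2.91 and 1.84, and all 3 were called. In DEN22w and DEN30w the pericentral class also had more macrophage marker RNA (1630 against 726 and 2279 against 1052 CPM) and more stroma marker RNA (478 against 184 and 799 against 289 CPM). With classes balanced over the macrophage index the differences were 2.41, 2.70 and 1.89, and all 3 were called.

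**Figure D4:**
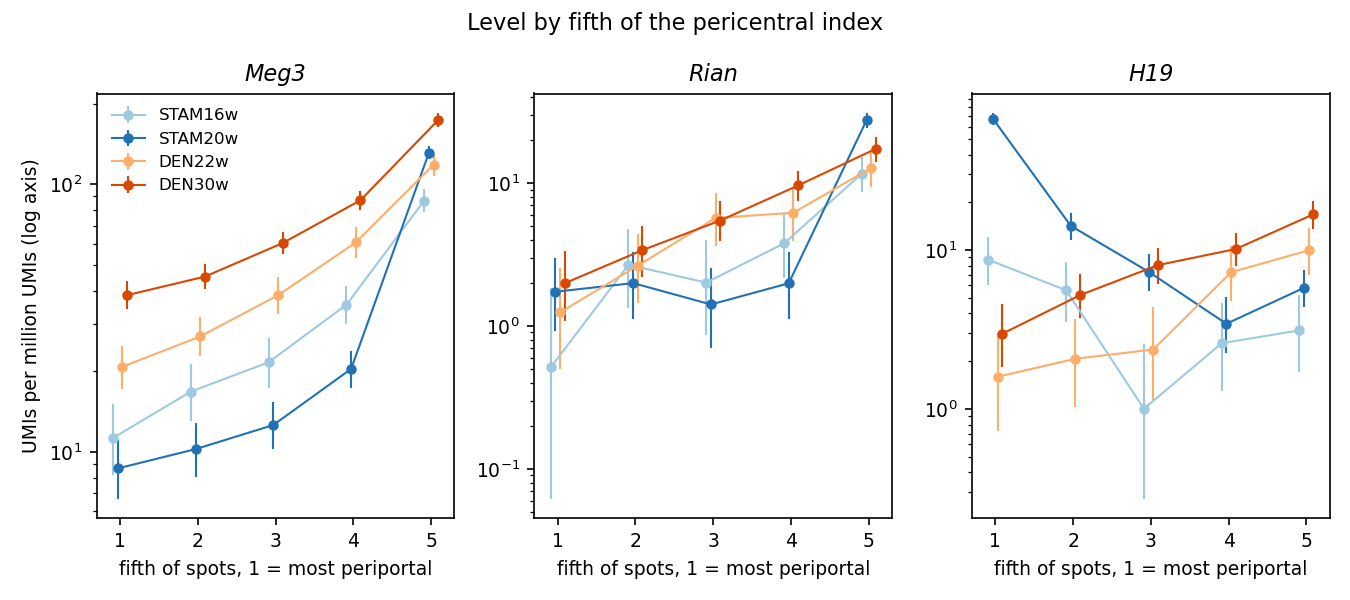
CPM (log axis) of Meg3, Rian and H19 by class of spots along the index of pericentral over periportal genes, from 1 (most periportal) to 5 (most pericentral), for each section; bars are exact Poisson 95% intervals of counting error. Meg3 and Rian end highest in class 5 in every section, and H19 is highest in class 1 in the STAM sections and in class 5 in the DEN+CCl4 sections.

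H19 ran in opposite directions along this axis in the 2 models. It stood at 3.13 against 8.71 CPM in STAM16w and 5.80 against 67.2 in STAM20w, pericentral against periportal. The STAM16w values rest on 14 against 34 UMIs, and 1 spot of that section held 22 H19 UMIs. In DEN22w H19 stood at 9.98 against 1.60 and in DEN30w at 16.8 against 2.99 CPM. The index is a ratio, so spots low in pericentral RNA can also fall at its periportal end. In the 4 H19 patches of STAM20w pericentral markers stood at 1181, 2107, 1145 and 1080 CPM, against 5313 outside the largest. Periportal markers stood there at 8149, 8937, 7917 and 6285 CPM, against 8432, and at 12506 CPM in the whole periportal class. By the index, H19 was higher at the periportal end in the STAM sections and at the pericentral end in the DEN+CCl4 sections. The test of that difference, the interaction of class and model, gave a log2 difference of -5.58 (SE 0.47, edgeR adjusted p = 0.000477), and H19 was the 1 member called, against 0.383% of genes called in either direction and 0.271% called lower. Without patch spots it was -3.33 (edgeR adjusted p = 0.00699), and without STAM20w, with STAM16w alone for its model, it was -3.83. Meg3 had 1.33 (SE 0.26, edgeR adjusted p = 0.0628) and Peg3 -2.05 (SE 0.73, edgeR adjusted p = 0.251). Meg3 was called when the classes were balanced over the macrophage index (2.06, edgeR adjusted p = 0.00167).

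Between stroma-rich and stroma-poor spots, the end classes of 5 by 15 stellate cell and myofibroblast genes, H19, Meg3 and Rian rose. They are 3 of 6 members tested, against 6.39% of 11908 genes called higher and 4.65% called lower. In both STAM sections the stroma-poor spots had 0 CPM for all 15 genes, with ties in the index broken by barcode order. H19 stood at 2.40 against 3.42, 44.0 against 4.07, 10.1 against 2.80 and 13.8 against 7.01 CPM, so STAM16w went the other way. Its log2 difference was 1.70 (SE 0.31, edgeR adjusted p = 0.000644), and without STAM20w it was 0.82 (edgeR adjusted p = 0.0623). Meg3 stood at 39.5 against 38.5, 28.8 against 25.0, 99.7 against 43.2 and 150 against 46.2 CPM, with the separation in the DEN+CCl4 sections. Its log2 difference was 0.85 (SE 0.16, edgeR adjusted p = 0.00135). Rian stood at 3.73 against 4.28, 4.16 against 3.78, 14.2 against 2.80 and 15.2 against 4.13 CPM, separated in the DEN+CCl4 sections and not in the STAM sections beyond counting error. Its log2 difference was 1.16 (SE 0.30, edgeR adjusted p = 0.0114). Rian was not called without DEN22w (0.82, edgeR adjusted p = 0.0528) or without DEN30w (0.79, edgeR adjusted p = 0.203).

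These calls depended on how the spots were chosen and tested. With classes balanced over the pericentral index, Meg3 had -0.06 (edgeR adjusted p = 0.907) and Rian -0.34 (edgeR adjusted p = 0.665), and only H19 was called (1.64, edgeR adjusted p = 0.00368). DESeq2 called none of the 9 members, with 0.504, 0.513 and 0.291 for H19, Meg3 and Rian. In STAM20w stroma-poor spots had a median of 3968 UMIs against 9740.5 in stroma-rich spots, and after thinning Meg3 alone of the 3 was called. With 3 classes of spots in place of 5, H19 and Igf2 were called, and Meg3 (0.44, edgeR adjusted p = 0.147) and Rian (0.45, edgeR adjusted p = 0.414) were not. Without the filter on low counts Igf2 was called with the 3. The stroma-rich class also held RNA of other cells: 11 of 15 macrophage genes, 7 of 8 bile duct genes tested and 5 of 6 B and plasma cell genes tested were called higher in it, and 14 of 15 periportal genes lower. Summed macrophage markers stood at 1103 against 1011, 2148 against 1407, 1553 against 900.4 and 2319.5 against 1247 CPM. The part of these cells in the members' levels was not tested.

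The Meg3 stroma contrast differed between models. The interaction was -1.33 (SE 0.19, edgeR adjusted p = 3.08e-05), with within-section log2 ratios of 0.03, 0.20, 1.21 and 1.70. Meg3 was the 1 member called, against 0.244% of genes called in either direction and 0.193% called lower, and it was also called with balanced classes (-1.37) and without patch spots (-1.20). DESeq2 gave -1.27 with an adjusted p of 0.443. Rian had -1.99 (SE 0.49, edgeR adjusted p = 0.0517).

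Between macrophage-rich and macrophage-poor spots, the end classes of 5 by 15 macrophage genes, no member was called by edgeR (0 of 6 tested, 0 at an unadjusted p under 0.05, and 0 by DESeq2), against 5.46% of 12309 genes in either direction and 4.56% higher. The sections pointed in opposite directions. Meg3 stood at 32.6 against 31.2 CPM in STAM16w and 28.5 against 78.2 in STAM20w. In DEN22w it stood at 102 against 28.9 and in DEN30w at 172 against 38.4 CPM. Rian stood at 3.42 against 3.53, 3.66 against 16.9, 11.0 against 2.08 and 22.6 against 2.03 CPM. Both genes were called without STAM20w (Meg3 1.39, Rian 2.24) and without patch spots (1.01 and 1.78).

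The difference between models was called for 3 of the 6 members, against 2.75% of genes in either direction and 1.05% lower. H19 had -4.37 (SE 0.38, edgeR adjusted p = 8.32e-06), Meg3 -2.65 (SE 0.27, edgeR adjusted p = 2.81e-05) and Rian -4.49 (SE 0.51, edgeR adjusted p = 8.26e-05). With classes balanced over the pericentral index Meg3 (-2.24) and Rian (-3.84) were called and H19 was not (-1.27, edgeR adjusted p = 0.188). Without DEN30w only H19 was called. Macrophage-rich spots of the DEN+CCl4 sections also carried more stroma marker RNA (482 against 222 and 940 against 329 CPM) and more pericentral marker RNA (4183 against 2631 and 3906 against 2932 CPM).

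**Figure D5:**
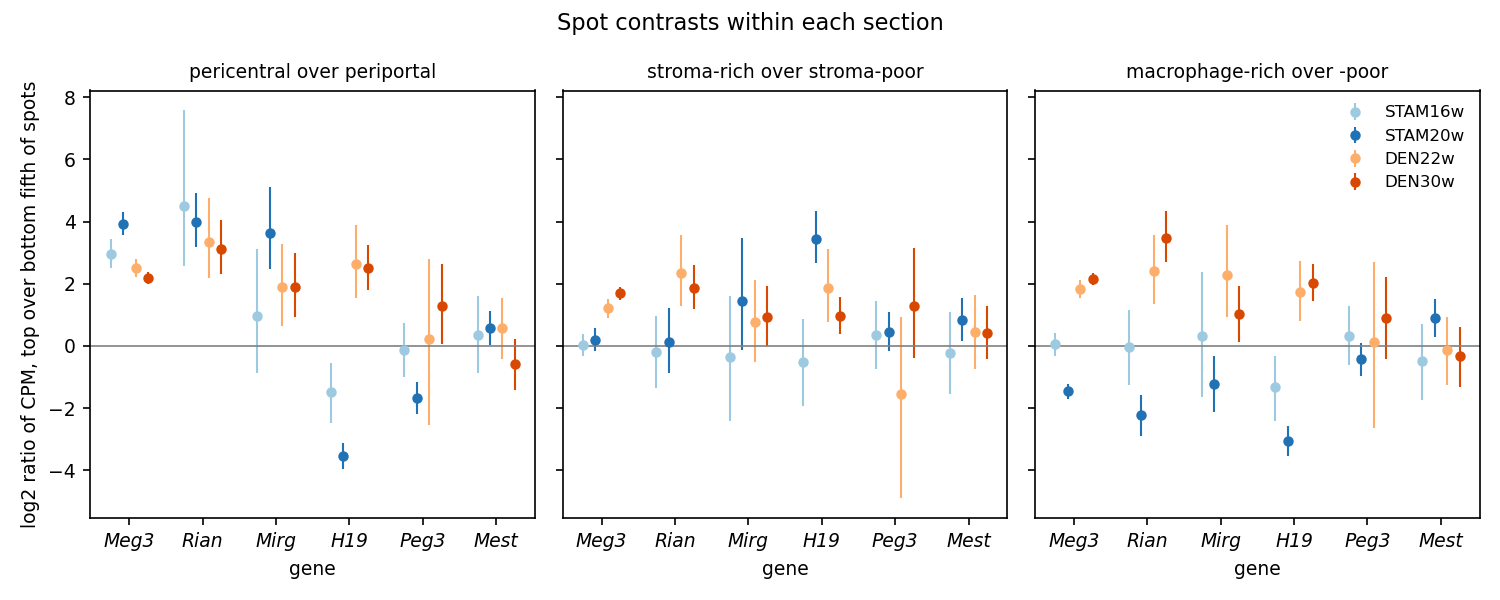
Log2 ratio of CPM between the end classes of spots (of 5 equal classes) by the pericentral, stroma and macrophage indices, for the 6 members tested, by section; bars are exact 95% intervals of counting error. Meg3, Rian and Mirg lie above 0 in all sections in the pericentral panel, where the bar of Mirg in STAM16w includes 0. H19 lies below 0 in both STAM sections and above 0 in both DEN+CCl4 sections in the pericentral and macrophage panels.

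Spots with Meg3 were then compared with spots of the same section and depth without it, in 483, 586, 741 and 1179 pairs. Zone was not matched. In STAM16w the Meg3 spots had pericentral markers at 7835 against 5422 CPM and periportal markers at 7486 against 9291 CPM. Of 15 periportal genes, edgeR called 0, with a median log2 difference of -0.41 and 15 at an unadjusted p under 0.05, and DESeq2 called 12. The part of zone in the differences below was not tested. Of 13237 genes, 13 were called (0.0982%), 12 of them higher. Slc13a3, a dicarboxylate transporter, Lhpp, a phosphatase, Sema3b, Glul and Abcc4 were higher in every section, and Mup21 was lower in every section. Sema3b was near the floor in the DEN+CCl4 sections, at 0.92 against 0 and 0.94 against 0.54 CPM. Glul stood at 825 against 464, 785 against 291, 76.5 against 52.4 and 63.6 against 43.6 CPM, a log2 difference of 0.81 (SE 0.12, edgeR adjusted p = 0.0308). Gpx2, with a log2 difference of 2.25 (SE 0.32, edgeR adjusted p = 0.0308), stood at 53.7 against 7.75 CPM in STAM20w, was level at 2.20 CPM in STAM16w and was under that in the other sections. The other members are given without a test, since co-detection chose them: the log2 difference was 2.02 for Rian, 1.62 for Mirg and 0.65 for H19. The balance of directions depended on the fit. Without STAM20w 349 genes were called, 126 higher and 223 lower. DESeq2 called 5 higher and 70 lower, and gave an adjusted p to 993 of 19848 genes.

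Spots with H19, in 50, 272, 78 and 215 pairs, differed from matched spots in 69 of 10887 genes (0.634%), 42 of them higher. Slpi stood at 4.06 against 2.03, 126 against 23.3, 4.02 against 1.34 and 89.2 against 44.0 CPM, a log2 difference of 1.65 (SE 0.16, edgeR adjusted p = 1.07e-07). In matched spots of STAM16w and DEN22w, 1 UMI is 2.03 and 1.34 CPM. The sign of Slpi and of other low genes in those sections thus rests on few UMIs. The others named by the rule were Mfge8 (0.89), Fabp5 (1.19), Cyp2a4 (0.93), Fabp4 (1.21), Rgs16 (0.85), Slc25a4 (1.04) and Serpina7 (0.58), which were higher, and Mup3 (-0.32) and Nnmt (-0.46), which were lower. Counts of the Mup genes and of Cyp2a4 are uncertain, because these families have near-identical copies. Afp had 2.28 (SE 0.24, edgeR adjusted p = 3.82e-07) but stood lower in STAM16w, at 4.06 against 24.3 CPM. DESeq2 called no gene here. The other members, again without a test, had log2 differences of 0.60 (Peg3), 0.44 (Mest), 0.20 (Meg3) and 0.18 (Rian).

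Of a list of 53 other imprinted genes, 30 were tested between pericentral and periportal spots and 3 rose, against 3.26% of all genes, with a list median of 0.07 against 0.01 for all genes. They were Igf2r, the receptor that clears IGF2 (0.69), Airn, the noncoding RNA antisense to it (2.12), and Dcn, a matrix proteoglycan (0.69). Igf2r stood at 20.1 against 13.1, 51.3 against 25.1, 31.3 against 19 and 39.2 against 21.9 CPM, higher in all 4 sections. Airn overlaps Igf2r, and whether the counting used strand is not given in the sources used here. In stroma-rich spots Dcn, Sgce and Grb10 rose and Ddc fell, of 28 tested, against 6.39% and 4.65% of all genes. The list median there was 0.03 against -0.01 for all genes. In macrophage-rich spots Dcn rose (0.92), of 28 tested, against 4.56% of all genes. Between models, where edgeR called 0.437% of 14417 genes, it called 0 of 32, with 2 at an unadjusted p under 0.05 and 1 called by DESeq2. It also called 0 in the other 3 lists below, with 3, 2 and 5 at an unadjusted p under 0.05 and 1, 0 and 2 called by DESeq2.

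Among 14 genes of IGF2 and DLK1 signalling tested along the pericentral axis, Igf2r rose and Igf1 (-0.84) and Notch3 (-1.23) fell, and of 9 genes that maintain imprints edgeR called 0 (1 at an unadjusted p under 0.05, 0 by DESeq2). Of all genes tested on that axis, 3.26% were called higher and 3.54% lower. In stroma-rich spots Igf1 (-0.34) and Insr (-0.30) fell, of 14 signalling genes, against 4.65% of all genes called lower. Of 8 maintenance genes edgeR called 0 there (1 at an unadjusted p under 0.05, 0 by DESeq2). Of 16 genes of fetal liver and its repression after birth, 5 rose in pericentral spots, against 3.26% of all genes. They were Lpl, Ly6d, Cpe, Bex1 and Aldh1a1, and the list median was 0.55. This list, like the others, was chosen with earlier results of these data known. Cpe (3.02, SE 0.44) stood at 1.57 against 1.54, 68.4 against 2.40, 13.9 against 2.85 and 21.2 against 3.98 CPM, level in STAM16w and higher in the other 3 sections. In stroma-rich spots 7 of the 16 rose, against 6.39% of all genes, with Epcam (2.66), Afp (1.43) and Cd24a (1.34) the largest 3. Summed bile duct markers were higher in the same class, at 423 against 169 CPM in STAM20w and 401 against 127 in DEN30w. Their part in these levels was not tested. In macrophage-rich spots 0 of 13 signalling genes (0 at an unadjusted p under 0.05, 0 by DESeq2), 1 of 8 maintenance genes (Dnmt3a, 0.47) and 1 of 16 fetal liver genes (Lpl, 0.64) rose. Of all genes tested there, 4.56% were called higher. Afp, high in the H19 patches of STAM20w, differed between models in the macrophage contrast by -2.96 (SE 0.42, edgeR adjusted p = 0.000723), as did Cpe (-3.78, SE 0.38, edgeR adjusted p = 2.25e-05).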

How the data were processed

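Fresh-frozen liver sections on Visium arrays were the samples, 1 per labelled group. The deposited values are counts of UMIs per gene and spot, which the authors made with Space Ranger 1.3.1 and STAR on mm10, per the submitters' processing notes; the annotation version and the use of strand are not given in the sources used here. Spots with at least 500 UMIs and 250 genes were kept, and no doublet caller was run, since a spot is not a cell. The members and all gene lists were chosen with earlier results of these data known.

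UMIs were summed per section, or per section and class of spots, and tested with edgeR 4.0.16 (TMM, filterByExpr, glmQLFit and glmQLFTest, section as block for classes of spots, Benjamini-Hochberg adjustment at 0.05 over all genes tested). The section is the replicate. The labels name no separate animals, so p-values measure only the spread between these sections. DESeq2 1.42.0, other filters, leaving out each section, 3 classes of spots in place of 5 and thinning to 2000 UMIs were alternatives. Leaving out patch spots and balancing the classes of spots were chosen after seeing the data. Detected and undetected spots were paired within 0.1 on the log10 scale of UMIs. Intervals are exact, at 95%, and cover counting error only. Genes were named by a rule: all members, called genes of the other lists, up to 10 called genes of the same sign in every section, correlations of at least 0.2, and the 10 highest ratios in a patch. Sequences are those of RefSeq on GRCm38.p6. The scripts were tested on simulated data.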

Additional observations from a re-analysis of the deposited data

Results flagged for a closer look

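In 5 cases the contrast between classes of spots differed between the models by the interaction test in edgeR, which uses 2 sections per model. H19 differed by -5.58 on the log2 scale between pericentral and periportal spots, being lower in pericentral spots of both STAM sections and higher in those of both DEN+CCl4 sections. H19 differed by -4.37 in the macrophage contrast, with the same division of the sections. The STAM16w values of H19 rest on 14 against 34 UMIs in the pericentral contrast and 12 against 31 in the macrophage contrast. Meg3 differed by -2.65 in the macrophage contrast, with STAM16w level, STAM20w lower and both DEN+CCl4 sections higher in macrophage-rich spots, and Rian differed by -4.49 there. Meg3 differed by -1.33 in the stroma contrast. Model and labelled time cannot be told apart in any of these, and the 113-spot Meg3 patch and the H19 patches of STAM20w enter them; the values without patch spots were -3.33, -3.04, -1.99, -2.92 and -1.20, and all 5 were called. With balanced classes H19 in the macrophage contrast had -1.27 (edgeR adjusted p = 0.188). Without DEN30w, Meg3 (-2.55, edgeR adjusted p = 0.0558) and Rian (-3.88, edgeR adjusted p = 0.113) were not called there, and DESeq2 gave Meg3 in the stroma contrast an adjusted p of 0.443.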

How the results depend on the processing

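No paired analysis was possible because each group has 1 section and the labels give no replicate numbers that would pair sections of different groups; classes of spots were compared within sections, with the section as a block. Without the section block the spot contrasts called 0 members, and the Meg3 and H19 matched comparisons 0 genes. In the pericentral contrast leave-outs gave 3 throughout, no filter 4 with H19 called lower, and thinned spots 2 of 4 members tested (Meg3 and Rian). In the stroma contrast DESeq2 called 0, thinned spots 1, balanced spots 1, 3 classes of spots 2 (H19 and Igf2), no filter 4 and leave-outs 2 to 3; Meg3 (-0.064) and Rian (-0.34) changed sign with balanced spots. In the macrophage contrast no filter, thinned spots and no patch spots each called 2, and leave-outs 0 to 2. For the difference between models, the pericentral count was 3 with no filter, 2 with 3 classes of spots, 3 with balanced spots and 1 to 3 on leave-outs, where a lone section of a model is assumed to vary like the others; the stroma count was 2 with no filter, 0 with DESeq2, 2 with 3 classes of spots and 1 to 2 on leave-outs; the macrophage count was 1 to 5 on leave-outs, and DESeq2 gave no member an adjusted p there. The count of members called between models, 0 by edgeR and 1 with no filter, with DESeq2 or without STAM16w (0 to 1 on leave-outs), supports nothing here, since section levels chose the members. Genes called beside Meg3 numbered 213 with no filter, 75 with DESeq2, 25 with a caliper of 0.05 and 8 to 349 on leave-outs. Beside H19 they numbered 130 with no filter, 0 with DESeq2 and 33 to 60 on leave-outs. The cause of these shifts was not tested.

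Without its largest patch H19 stood at 2.72 CPM in STAM16w and 13.6 in STAM20w, Meg3 at 32.8 and 23.1, and in STAM20w Rian at 4.33 and Mirg at 2.23. The STAM ratio of Meg3 became 0.704 and that of Rian 1.01. Thinned to 1000 UMIs, the share of Meg3 spots with H19 was 0% in both STAM sections, that with Mirg in STAM20w 0% and that with Rian in DEN30w 1.79%. Patches numbered 23 at 3-fold, 7 at 8-fold (none of Meg3 or Peg3), 18 at 3 UMIs (1 of Igf2) and 7 at 10 UMIs (none of Mirg or Peg3). Few UMIs limit Igf2, Dlk1 and Peg10, which most tests could not include.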

Other observations

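Airn and Slc22a3, imprinted genes outside the members that lie beside Igf2r, were singled out after their values were seen. Airn stood at 1.12 against 0.512, 7.25 against 1.07, 2.50 against 0.178 and 3.30 against 1.14 CPM in pericentral against periportal spots of STAM16w, STAM20w, DEN22w and DEN30w. Slc22a3, a cation transporter, was the gene of the other imprinted list whose pericentral contrast differed between models (3.04, SE 0.35, edgeR adjusted p = 0.00325).

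With spots thinned to 2000 UMIs, 18.9% of the spots touching a Meg3 spot held Meg3 in STAM20w and 17.9% of those 5 steps away did, against 6.44% of the section. In DEN22w these shares were 15.2% and 10.7%, against 10.1%, and in DEN30w 22.7% and 18.1%, against 16.5%. The spots of a section share its library, so no test is given.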
